A study of Mus musculus with 6 samples.

Results

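The 8 genes described here encode receptors of the adrenergic family and were taken by symbol from the 54281 genes counted in GLUTag cells, a mouse cell line that models the enteroendocrine L-cell and secretes GLP-1. All 8 were found. They are 3 α1 genes (Adra1a, Adra1b, Adra1d), 3 α2 genes (Adra2a, Adra2b, Adra2c) and the β genes Adrb1 and Adrb3. The data are 6 libraries of polyadenylated RNA from untreated GLUTag wells, sequenced from the 3′ end of each transcript, and such counts do not grow with transcript length, which lets levels of different genes be compared. All wells grew for 48 h in DMEM with 1 g/L glucose and 10% heat-inactivated FBS on Matrigel. Of these, 3 wells were at passage 23 on plate 1 and 3 at passage 27 on plate 2, and any effect of the plate cannot be told apart from that of the passage. No label says that wells of a plate came from separate cultures, and p-values here therefore measure only the spread between wells. The plate 1 libraries are named replicates 1, 2 and 3, and the plate 2 libraries A, B and C in the order of their total counts, since the numbers in their headers match no single label.

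Adrenergic receptors are G protein-coupled receptors for adrenaline and noradrenaline, the catecholamines of the sympathetic nerves and the adrenal medulla. The α1 receptors act through Gq and phospholipase C to release calcium. The α2 receptors act through Gi and Go, lower cyclic AMP and restrain secretion in many endocrine cells and nerve endings, insulin secretion of the islet among them. The β receptors act through Gs and raise cyclic AMP, a signal that favours hormone release.

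Totals lay between 21399987 and 36488198 counts per library. A library with no count of a gene may still hold up to 3 counts, which is 0.0822 to 0.14 CPM (counts scaled to the library total) depending on the library and covers counting error only. A gene is called detected where every library had more than 3 counts. Of the 9 genes fixed as L-cell markers, 8 were detected, with Gcg, the proglucagon gene, at 3416 ± 771 CPM and Chga, the chromogranin A gene, at 219.2 ± 38.1 CPM (each SD, n = 6), while the peptide YY gene Pyy had 2 to 17 counts per library. The list holds genes also made by other enteroendocrine cells, Chga among them, so the 8 detected genes do not single out L-cells. Markers of other cells were low. Fibroblast markers summed to 4.87 to 7.12 CPM on plate 1 and 5.44 to 7.06 CPM on plate 2, nearly all from Col1a2 (5.87 CPM), and 1 of the 6 was detected. The sum was at most 1.78 CPM in any library for enterocyte markers (2 of 5 detected, highest Alpi at 0.659 CPM), at most 0.570 CPM for smooth muscle markers (0 of 5 detected, highest Cnn1 at 0.152 CPM) and at most 1.104 CPM for blood cell markers (0 of 5 detected). Library B stood apart from the other plate 2 libraries, with 346 of 5031 genes of at least 30 CPM more than 2-fold lower in it and 2 more than 2-fold higher, against at most 2 lower in any other library. Library C had 46 genes more than 2-fold higher, against at most 4 in any other library. Each library was set against the mean of the other 2 of its plate, so library B is part of the comparison for library C.

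Of the 8 receptor genes, Adra2a was by far the most abundant, Adrb1 was detected at a low level, and the other 6 were not detected. The same 2 genes were detected when a library had to reach 10 counts, when it had to reach 1 CPM, and when any one library, library B included, was left out. Adra2a held 93.98 ± 1.33% of the counts of the 8 genes and Adrb1 5.64 ± 1.29% (each SD, n = 6 libraries). Counts of 0 in all 6 libraries were found for Adra1d, Adra2c and Adrb3. The remaining Adra1a, Adra1b and Adra2b had 1, 9 and 14 counts over all libraries together. The plot of levels by library shows this order.

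**Figure D1:**
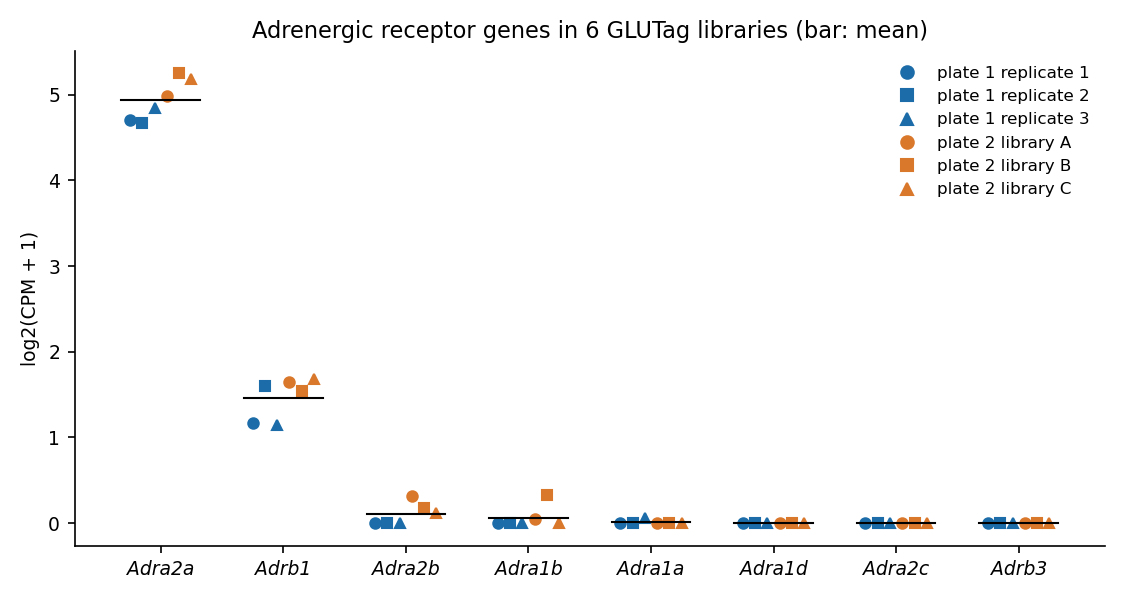
Level of each receptor gene as log2(CPM + 1) on the vertical axis, with genes from highest to lowest mean on the horizontal axis. Each point is a library, blue for plate 1 and orange for plate 2, and the black bar is the mean of the 6. Adra2a and Adrb1 lie above 0 in each library, and the other 6 genes lie at or near 0.

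The sequences at the start of Adrb1 and Adra2b are shown because they set a detected gene beside one with only a few counts. Of the 8 genes, 5 have a promoter entry in the RefSeq table (GRCm38.p6), and Adra1a, Adra1d and Adrb3 are only named. Each window runs from 250 bases before to 50 bases after the RefSeq start and is written 5′ to 3′ on the plus strand, the strand of both genes. The windows of Adra2a (chr19:54045009-54045308) and Adra2c (chr5:35278316-35278615) lie wholly or almost wholly inside the transcripts of the GENCODE annotation, whose starts are further upstream, and are described by composition and motifs without their sequence. Capitals mark matches on either strand to the GC box GGGCGG, the TATA box TATAAA, the cyclic AMP response element TGACGTCA and the CCAAT box CCAAT. In the Adra2b window a GC box and the CCAAT box adjoin.
Adrb1, chr19:56721867-56722166: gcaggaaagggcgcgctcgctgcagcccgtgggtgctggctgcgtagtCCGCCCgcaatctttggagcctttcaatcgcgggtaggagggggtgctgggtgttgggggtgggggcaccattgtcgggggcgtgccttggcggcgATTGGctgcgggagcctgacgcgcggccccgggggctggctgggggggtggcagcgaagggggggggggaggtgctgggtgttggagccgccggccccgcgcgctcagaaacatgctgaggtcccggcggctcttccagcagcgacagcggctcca
Adra2b, chr2:127362929-127363228: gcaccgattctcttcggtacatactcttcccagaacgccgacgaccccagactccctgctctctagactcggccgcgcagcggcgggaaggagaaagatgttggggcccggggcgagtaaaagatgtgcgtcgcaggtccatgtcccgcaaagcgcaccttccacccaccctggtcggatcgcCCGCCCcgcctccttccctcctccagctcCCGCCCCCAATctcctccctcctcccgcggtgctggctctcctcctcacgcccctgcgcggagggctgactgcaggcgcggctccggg

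The Adra2a window was 68.7% G or C with 28 CG pairs, and the Adrb1 window was 72.3% G or C, also with 28. The median over all 32817 promoter windows was 52.7% and 7 CG pairs. The Adra2c window, with 51.3% and 7 CG pairs, was near that median. A base composition like that of the detected genes was also found where the gene was not detected. The Adra2b window had 68% and 29 CG pairs, and of the Adra1b windows one had 71.3% and 28 CG pairs and the other 42.3% and 3. A GC box was present in the Adra2a, Adrb1 and Adra2b windows and in one of Adra1b, as in 35.6% of all windows, and absent from that of Adra2c. Only the Adra2a window among these genes held TATAAA, a sequence found in 13.6% of all windows. It stood 29 to 24 bases before the RefSeq start, which lies inside the GENCODE transcript. The CCAAT letters occurred in windows of Adrb1, Adra2b, Adra2c and Adra1b and in 37.4% of all windows. The response element TGACGTCA, which 1.79% of all windows hold, was in none of the windows of the 5 genes.

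Adra2a encodes the α2A receptor, an α2 subtype that acts as autoreceptor of sympathetic nerve endings and that inhibits insulin release in the islet. The gene (ENSMUSG00000033717) lies on chromosome 19 of GRCm38 from 54044151 to 54048982 on the plus strand. Its longest transcript is a single exon of 4832 bases with a coding part for 465 residues. On plate 1 it had 600, 555 and 591 counts in replicates 1, 2 and 3, or 25.01, 24.52 and 27.62 CPM. On plate 2 it had 857, 1145 and 1289 counts in libraries A, B and C, or 30.52, 37.04 and 35.33 CPM. The level over all libraries was 30 ± 5.27 CPM (SD, n = 6), higher than that of 81.4% of the 27044 genes with a count. Library B was the highest and replicate 2 the lowest. None of its 4831 different stretches of 31 bases, the default word length of the aligner, occurred in a transcript of another gene on either strand.

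Adrb1 encodes the β1 receptor, best known as the β receptor of the heart. The gene (ENSMUSG00000035283) lies on chromosome 19 from 56722199 to 56733113 on the plus strand, and its coding transcript is a single exon that ends at 56725150. It had 30, 46 and 26 counts in replicates 1, 2 and 3, or 1.25, 2.03 and 1.22 CPM. In libraries A, B and C it had 60, 59 and 81 counts, or 2.14, 1.91 and 2.22 CPM. Replicates 1 and 3 lay below the other 4 libraries, while replicate 2 lay within the range of plate 2. The mean was 1.79 ± 0.447 CPM (SD, n = 6), above that of 54.1% of the genes with a count. Of its 3352 stretches of 31 bases, 68 also occur in transcripts of other genes, either strand counted.

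Adra2b encodes the α2B receptor of vascular smooth muscle. It had no count in any plate 1 library and 7, 4 and 3 counts in libraries A, B and C, or 0.249, 0.129 and 0.0822 CPM. Each plate 2 library thus held a few counts where plate 1 held none, yet a plate 1 library with no count may hold up to 0.125 to 0.14 CPM. That limit is for 1 library at a time, and no limit was worked out for the 3 plate 1 libraries together. The exact two-sided permutation p over libraries was 0.1, the smallest that 3 against 3 allows, so that test could not pass 0.05. Without the filter on low counts, edgeR gave an unadjusted p of 0.0304 and an adjusted p of 0.358.

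Adra1b, the gene of the α1B receptor of liver and vessels, had 8 counts in library B (0.259 CPM), 1 count in library A and none elsewhere. Nearly all of its counts thus came from the library that stood apart over many genes. Adra1a, the gene of the α1A receptor of smooth muscle and heart, had 1 count, in replicate 3. Adrb3, the gene of the β3 receptor of fat cells, Adra2c, the gene of the α2C receptor, and Adra1d, the gene of the α1D receptor of vessels, had none.

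For 3′ sequencing it matters where a gene's annotated end lies, since a read beyond it is not assigned to the gene. For Adra2a, Adra2b, Adra2c and Adrb3, RefSeq and GENCODE (release M21) end at the same base, and so does the coding transcript of Adrb1. In each of these 5 genes the hexamer AATAAA, the usual signal for polyadenylation, stands in the last 50 bases of the longest coding transcript. Adra1d (chromosome 2, 131545850 to 131562283, minus strand) and Adra1a are different. For Adra1d, the only GENCODE transcript has 98 bases after the coding part, holds neither AATAAA nor ATTAAA in its last 50 bases and stops 493 bases before the end given by RefSeq. Where Adra1d ends in release M23, with which the counts were made, was not checked, and whether a missing stretch bears on its count of 0 was not tested. The antisense gene Gm14285, which overlaps Adra1d, had no count either. Adra1a ended 72 bases before the RefSeq end as a gene, but its longest coding transcript ended 41256 bases before it and also had neither hexamer in its last 50 bases. Adra1b ended 1 base before the RefSeq end. Adrb3 (chromosome 8, 27225776 to 27250616, minus strand) is overlapped by the antisense gene Gm45470 (0 to 3 counts per library). For Adrb3, 740 of 3370 stretches of 31 bases also occur in other genes on either strand, and the strands were not told apart. Whether this bears on the count of 0 of Adrb3 was not tested.

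The order of levels was tested inside every library on log2(CPM + 1) values, over the 13 of 28 pairs with at least 1 detected gene. The signs of the 6 differences were flipped in all ways (exact permutation test, two-sided), for which the smallest p is 0.03125. The log2 level of Adra2a exceeded that of Adrb1 by 3.47 ± 0.24 in 6 of 6 libraries (SD, n = 6, exact permutation p = 0.03125, the same after Benjamini-Hochberg adjustment over the 13 pairs). These 13 pairs were picked by detection in the same counts, and all had the smallest p, so the adjustment adds no support. An adjustment over all 28 pairs was not made. Adrb1 exceeded Adra2b, which had the most counts of the genes not detected, in 6 of 6 libraries by 1.36 ± 0.193 (SD, n = 6, exact permutation p = 0.03125, also after adjustment). The other 11 pairs gave the same p, from 1.40 for Adrb1 against Adra1b to 4.94 for Adra2a against each of Adra1d, Adra2c and Adrb3. Where the lower gene was not detected, the added 1 CPM largely sets the size of the difference, which is not a fold difference between the genes. Against a gene that was not detected this p says only that the other gene was present in each library, since the sign is fixed wherever the lower gene has no count, as Adra2b in the 3 plate 1 libraries. Among the 6 genes that were not detected, no order can be given. Counted against the limit of 3 counts per library, Adra2a was at least 185-fold higher than Adra1d, Adra2c or Adrb3 in every library and Adrb1 at least 8.67-fold higher.

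As a ratio of counts, Adra2a to Adrb1 was 20, 12.07 and 22.73 in replicates 1, 2 and 3 and 14.28, 19.41 and 15.91 in libraries A, B and C. The mean ratio was 17.4 ± 3.99 (SD, n = 6), 18.27 ± 5.54 on plate 1 and 16.53 ± 2.62 on plate 2 (each SD, n = 3). The plot of the ratio by library shows the counting error behind each value. The exact 95% interval was 8.92 to 16.67 for the lowest ratio, in replicate 2, and 15.36 to 35.09 for the highest, in replicate 3. These intervals cover counting error only, and a difference between wells was not tested.

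**Figure D2:**
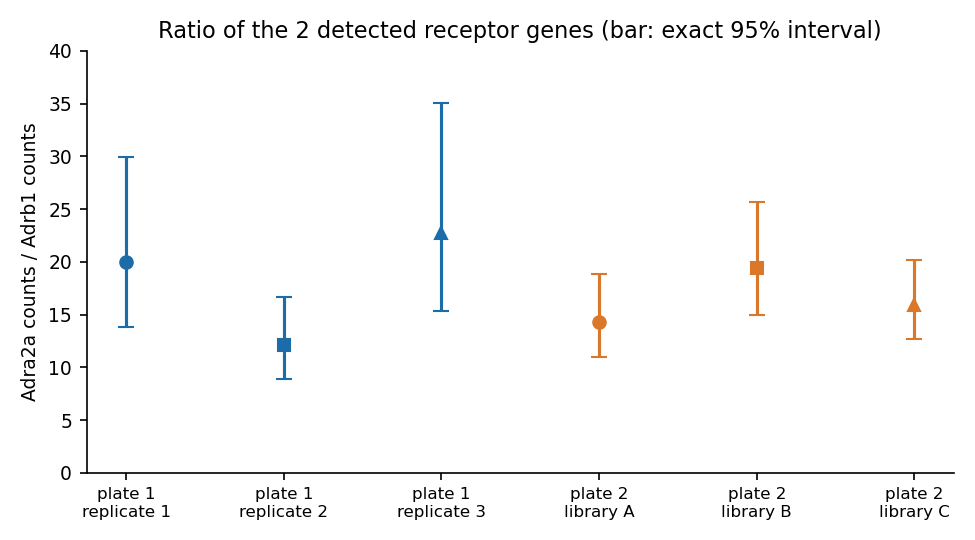
Ratio of Adra2a to Adrb1 counts on the vertical axis for each library on the horizontal axis. The points are the ratios and the bars the exact 95% binomial (Clopper-Pearson) intervals, which cover counting error only. The ratio lies between 12.07 and 22.73.

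Between the plates, neither detected receptor gene passed the threshold. With TMM scaling the log2 fold change of plate 2 over plate 1 was 0.15 (SE 0.135) with an edgeR adjusted p of 0.641 for Adra2a and 0.20 (SE 0.313) with an edgeR adjusted p of 0.805 for Adrb1. Each SE given with an edgeR fold change was derived from that fold change and the F statistic of its test. The value for Adrb1 moved with single plate 1 libraries, to 0.51 without replicate 2, 0.06 without replicate 3 and 0.08 without replicate 1. Of 15669 genes in the same fit, 29 were called, or 0.185%, a number that ranged from 0 without replicate 1 or library A to 1911 without library B. The count of called receptor genes was 0 of 2 with edgeR, DESeq2 and limma-voom, beside 0.185%, 3.73% and 0.0638% of all genes tested. Neither gene had an unadjusted p under 0.05 in these 3 fits, which 2520, 2296 and 2596 of the 15669 genes had. The other 6 receptor genes had too few counts to enter the fit.

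The CPM of Adra2a alone gave another picture, because it depended on the scaling. Per total count, Adra2a was 25.72 ± 1.67 CPM on plate 1 and 34.29 ± 3.38 CPM on plate 2 (each SD, n = 3), with no overlap of the plates. That every plate 2 library lies above every plate 1 library was found for 22.8% of the 27044 genes with a count, and for 9.32% of them with TMM scaling. With TMM, Adra2a ranged from 27.84 to 30.2 CPM on plate 1 and from 27.92 to 35.02 CPM on plate 2, and the plates overlapped. Without scaling beyond the total, the median log2 fold change of all genes was 0.299, against 0.0313 with TMM, and that of Adra2a was 0.42 (adjusted p = 0.0749 from edgeR). With TMM the log2 fold change of Adra2a was 0.05 without library B and 0.24 without library A. Adrb1 was 1.499 ± 0.462 CPM on plate 1 and 2.09 ± 0.161 CPM on plate 2 (each SD, n = 3) and overlapped with either scaling, as the plot by plate shows. Of the 8 receptor genes, Adra2b was the one whose plates did not overlap with either scaling, on 3 to 7 counts per plate 2 library.

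**Figure D3:**
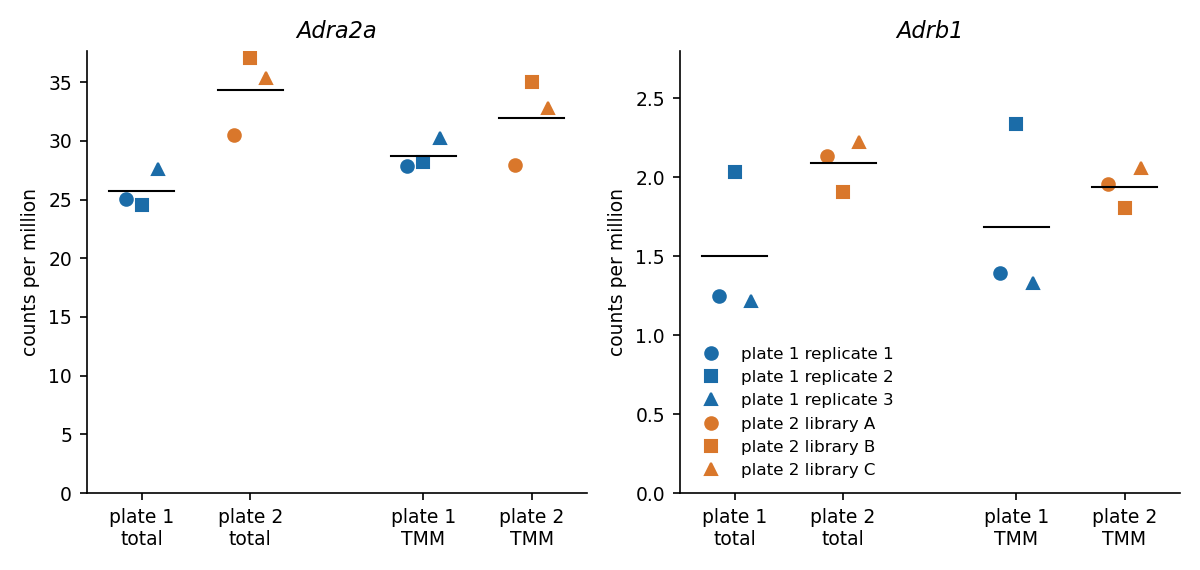
CPM of Adra2a (left) and Adrb1 (right) on the vertical axis, by plate, per total count and after TMM scaling. Each symbol is a library and the black bar the mean of 3. The Adra2a plates are separate per total count (24.52 to 27.62 against 30.52 to 37.04 CPM) and overlap after TMM.

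Across the 6 libraries many genes shared the pattern of Adra2a in log2(CPM + 1). Of 8657 other genes with at least 10 CPM, 348 had Pearson's r over 0.95 with it. Among the 3 highest was Galc, the gene of galactosylceramidase (r = 0.9958 over 6 libraries, 11.55 CPM). Without library B this value was 0.993. Such values describe these 6 libraries only, and how far they rest on the step between the plates in CPM was not tested. For Adrb1 the value was 0.512.

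Genes of the proteins that carry adrenergic signals were read from 11 lists with 71 genes, of which 56 entered the fit. None of the 56 was called between the plates by edgeR or by limma-voom, where the unadjusted p was under 0.05 for 5 and 6 of them, beside 2520 and 2596 of all 15669 genes. DESeq2 called 2 of the 56, beside 584 of the 15669, or 3.73%. In edgeR's fit, 29 of the 56 had a positive and 27 a negative log2 fold change, with a median of 0.0225 beside 0.0313 for all genes. One of these was Gna11, the gene of a Gq-type α subunit, which had 227.3, 226.1 and 176.5 CPM in replicates 1, 2 and 3 and 149.9, 138.1 and 133.1 CPM in libraries A, B and C. The log2 fold change of Gna11 was -0.85 in edgeR's fit (standard error 0.135, adjusted p = 0.0563) and -0.87 in DESeq2's (adjusted p = 6.46e-05).

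The G protein partners of both detected receptors were abundant. Gnas, the gene of Gs and of several overlapping transcripts, had 1390 ± 235 CPM and Gnai2, the gene of a Gi subunit, 632.3 ± 69.6 CPM (each SD, n = 6), and 8 of 9 α subunit genes were detected. For the end of signalling, all 7 genes of receptor kinases and arrestins were detected. They were led by Arrb2, the gene of β-arrestin 2, at 89.6 ± 19.1 CPM and Grk2, the gene of the kinase that phosphorylates active β receptors, at 48.7 ± 7.91 CPM (each SD, n = 6). RGS proteins, which switch Gi and Gq off, were detected for 7 of 8 genes, with Rgs4 at 107.8 ± 8.08 CPM and Rgs10 at 27.2 ± 4.48 CPM. Of the receptor scaffolds 3 of 4 were detected, Akap12 at 45.0 ± 8.57 CPM and Nherf1 at 41.1 ± 3.68 CPM being the highest.

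Of the effectors, 6 of 9 adenylyl cyclase genes were detected, with a list median of 2.39 CPM. Adcy1 had 17.6 ± 3.00 CPM and Adcy6 16.8 ± 7.72 CPM (each SD, n = 6), the latter with 4.98 CPM in library B against 18.7 and 27.9 CPM in libraries A and C. All 9 genes of protein kinase A subunits and other cyclic AMP effectors were detected, Prkar1a at 445.1 ± 87.3 CPM and Prkar2a at 212.5 ± 18.5 CPM being the highest. All 4 phospholipase C β genes, effectors of Gq, were detected, with Plcb1 at 19.65 ± 2.53 CPM and Plcb4 at 11.46 ± 1.82 CPM. Of the 4 subunits of G protein-gated potassium channels, which α2 receptors open in neurons, Kcnj9 (6.83 ± 1.88 CPM) and Kcnj6 (1.23 ± 0.321 CPM) were detected.

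Catecholamine genes were unequal. Ddc, the gene of aromatic amino acid decarboxylase, which also makes serotonin, had 144.7 ± 27.9 CPM (SD, n = 6). Th, the gene of the first enzyme of catecholamine synthesis, had 2.26 ± 0.499 CPM (SD, n = 6) and Dbh, the gene of the enzyme that makes noradrenaline, 1.06 ± 0.408 CPM. Pnmt, needed for adrenaline, had at most 1 count in any library. Among 8 genes of uptake and breakdown 6 were detected. Among them was Maoa, the gene of the degrading enzyme monoamine oxidase A, at 62.5 ± 3.33 CPM (SD, n = 6). The noradrenaline transporter gene Slc6a2 had 0.564 ± 0.186 CPM. Of the markers fixed for chromaffin cells, which share Th, Dbh, Pnmt, Slc6a2 and Slc18a1 with these lists, 4 of 5 were detected, with Slc18a1 highest at 5.87 CPM. Of the 5 genes of the closely related dopamine receptors, only Drd2 was detected, at 0.528 ± 0.2 CPM (SD, n = 6), while Drd1 had 2 counts in 1 library. The plot of list members beside the receptors shows these levels.

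**Figure D4:**
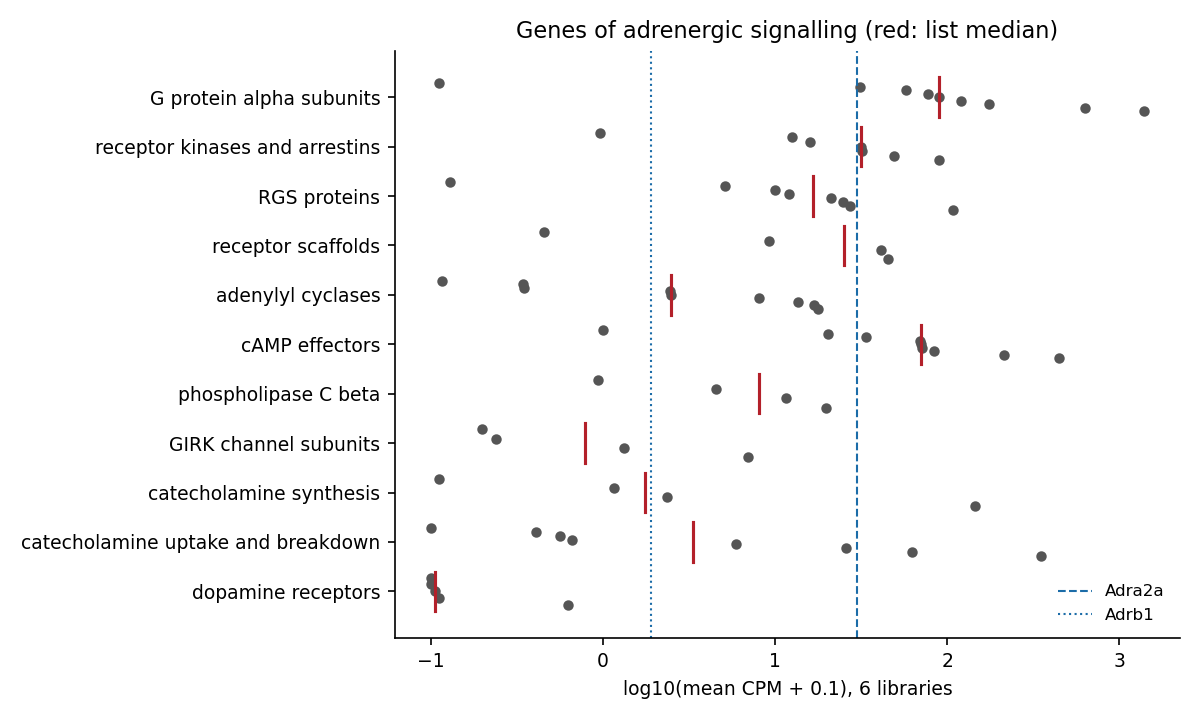
Mean level over 6 libraries of each gene of the 11 lists, as log10(mean CPM + 0.1) on the horizontal axis. Each grey point is a gene, the red line the list's median, and the dashed and dotted blue lines the means of Adra2a (30 CPM) and Adrb1 (1.79 CPM). G protein α subunits and cyclic AMP effectors reach the highest levels and dopamine receptors the lowest.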

How the data were processed

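RNA of 6 GLUTag wells was sequenced with a 3′ mRNA kit. The authors trimmed reads (Trim Galore 0.6.4), assigned them with Salmon 1.5.1 to transcripts of GRCm38 (GENCODE M23) with its length correction turned off, and added transcripts up to genes. Expected counts, not normalized and not always whole, are what was deposited. The strand setting is not given in the sources used here.

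Counts were divided by the library total (CPM). Positions and symbols are from GENCODE M21 (GRCm38), which held 54107 of 54281 identifiers, and promoters from RefSeq. Pairs of genes were compared by an exact sign-flip test with a pseudocount of 1 CPM. Plates were compared on rounded counts by the quasi-likelihood test of edgeR 4.0.16 (filterByExpr filter, TMM factors, robust fit, Benjamini-Hochberg adjusted p under 0.05) over all genes, with DESeq2 1.42.0, limma 3.58.1, other scalings, filters and the omission of each library as alternatives. R 4.3.3, Python 3.11.15, numpy 2.4.6, scipy 1.17.1, pandas 2.3.3 and matplotlib 3.10.9 were used. The tests were tested on simulated data.

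The named genes are the 8 receptor genes, the highest 2 of each pathway list with any gene called, the highest gene of each marker list with Gcg and Chga, and the genes closest in pattern to Adra2a. Pyy, Dbh, Pnmt, Slc6a2, Gm14285, Gm45470 and, by another tool, Gna11 were added after their values were seen. The members and lists were chosen with earlier results of these data known. Some genes that the rule names, and a further gene of the family, are not reported here.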

Additional observations from a re-analysis of the deposited data

Results flagged for a closer look

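Among the 5 receptor genes with a count and the total counts, 2 values stood far from those of the other 5 libraries by Dixon's ratio of the gap to the whole range. Chance gives this in about 1 of 20 groups of continuous values, and 6 groups were examined, but that rate does not hold for counts as low as these. Adra1b was at 0.259 CPM in library B, from 8 counts (ratio 0.862). Adra1a was at 0.0467 CPM in replicate 3, from 1 count, under the limit of 3 counts, and a gene with a single count has a ratio of 1 by construction. No cause was tested for either.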

How the results depend on the processing

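The number of detected receptor genes stayed at 2 under both stricter limits and all 6 omissions of a library, and the 13 pairs past the threshold stayed at 13 with a pseudocount of 0.1 or 5 CPM and with TMM, which is fixed where a gene is higher in every library. The difference of Adra2a minus Adrb1 was 4.01 with 0.1 CPM and 2.35 with 5 CPM. With 5 libraries no pair can pass, so omissions give values only. Neither Adra2a nor Adrb1 was called between plates under any of 12 alternatives, and both kept a positive fold change. The number of all genes called between plates, 29 (2 higher, 27 lower on plate 2), was 584 with DESeq2 (157 and 427), 10 with limma-voom, 1482 without scaling beyond the total (1411 and 71) and 545 without the filter (255 and 290). It ranged from 0 to 1911 over the omissions of 1 library, with 0 without replicate 1 or library A (1611 and 2121 genes at an unadjusted p under 0.05), 2 without replicate 2, 6 without replicate 3, 9 without library C and 1911 without library B. The cause was not tested. No label pairs a well of plate 1 with a well of plate 2, and the plates were compared without pairing. Sample titles number the wells 1 to 6, while the numbers in the headers start again at 1 on plate 2 and match no single title there. Depth limits the 6 receptor genes that were not detected to statements about a few counts.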
